A study of Rattus norvegicus with 24 samples.

Results

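The genes described here load peptides onto MHC class I molecules or build the immunoproteasome. They are B2m, Tap1, Tap2, Tapbp, Psmb8, Psmb9 and Psmb10, 7 genes taken by symbol from the 17420 genes of the deposited table. RNA was sequenced from the hippocampus and neocortex of 24 Sprague-Dawley rat pups, removed on embryonic day 18 from dams under 4 maternal treatments. Saline-treated controls came from dams injected with saline on gestational day 17, and control dams ate a diet of 20.3% protein. MAM pups came from dams given methylazoxymethanol acetate, a DNA-methylating agent, at 22 mg/kg on that day, and Poly I:C pups from dams given a synthetic double-stranded RNA that mimics viral infection, at 7.5 mg/kg. These 3 groups were collected 18 hours after the injection. Low Protein pups came from dams fed 6.1% protein from gestational day 11 to 18. The sources used here do not state the diet of the MAM and Poly I:C dams or any injection of the Low Protein dams. Each group held 6 pups, 3 from each of 2 litters, and both sexes were combined. Which pups shared a litter was inferred from the first number in the sample names, which the labels do not call a litter. The pup was the replicate although the dam was treated, so the p-values measure the spread between pups.

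Class I molecules show fragments of a cell's own proteins on its surface, where cytotoxic T cells read them. The proteasome cuts the proteins, the TAP transporter carries the peptides into the endoplasmic reticulum, and tapasin holds an empty class I molecule beside the transporter until a peptide fits. Interferons replace the catalytic subunits of the standard proteasome by the immunoproteasome subunits and raise the whole pathway. Neurons keep class I low, and in the developing brain these molecules are also known for a part in synapse refinement.

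The promoters of most of these genes hold a motif that bears on interferon, so the stretches that hold it are shown first. All 7 genes had a promoter window in RefSeq (GRCr8 assembly), which runs from 250 bases before to 50 bases after the annotated start site, and position 0 is the first transcribed base. The interferon-stimulated response element was searched on both strands as GAAA, any 2 bases and GAAA again. It was present in 6 of 7 windows, all but that of Psmb9, and in 3.92% of the 33469 rat promoters searched. None of the windows of the constitutive counterparts Psmb5, Psmb6 and Psmb7 held it (0 of 3). In the sequences below, each written 5′ to 3′ on the strand of its gene, capitals mark the match, which reads as its reverse complement where it lies on the opposite strand. The stretches lie at chr3:129549160-129549204 (plus strand, B2m), chr20:4668640-4668684 (minus strand, Tap1), chr20:4652313-4652357 (minus strand, Tap2), chr20:4967878-4967923 (minus strand, Tapbp), chr20:4657026-4657055 (minus strand, Psmb8) and chr19:50743293-50743385 (minus strand, Psmb10). The 60 bases before the start site of Psmb9, at chr20:4668940-4668999 (plus strand), are given for comparison and hold no match.
B2m: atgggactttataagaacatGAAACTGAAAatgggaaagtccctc
Tap1: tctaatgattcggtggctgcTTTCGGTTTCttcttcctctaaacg
Tap2: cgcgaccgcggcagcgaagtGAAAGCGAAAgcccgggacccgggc
Tapbp: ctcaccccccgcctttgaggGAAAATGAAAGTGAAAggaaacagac
Psmb8: cctcctcttggtgctgtggcTTTCGCTTTC
Psmb10: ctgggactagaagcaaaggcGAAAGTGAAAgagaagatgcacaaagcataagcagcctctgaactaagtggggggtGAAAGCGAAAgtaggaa
Psmb9: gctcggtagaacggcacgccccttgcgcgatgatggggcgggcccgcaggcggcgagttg

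The matches sat close to the start sites. In B2m the element spanned positions -150 to -141, in Tap1 -121 to -112, in Tap2 -41 to -32, and in Psmb8 -4 to 5, across the start site itself. Tapbp held a pair of overlapping matches between -26 and -11, and Psmb10 a separate pair, from -73 to -64 and from -17 to -8. Tap1 and Psmb9 are neighbors on chromosome 20 and are read in opposite directions from start sites 456 bases apart, with the Tap1 match 336 bases from the Psmb9 start. Along the chromosome, Tap2, Psmb8, Tap1 and Psmb9 follow each other between the class II genes RT1-DOb and RT1-DMb. A kappa B site, taken as an exact match of its consensus of 10 bases on either strand, was found in the windows of B2m and Tap1 and in 0.111% of all promoters. A gamma-activated site, TTCNNNGAA, was found in that of Psmb8 and in 8.87% of all promoters, and the CCAAT box in 3 of 7 windows and in 37.5% of all promoters. No match overlapped one of another motif, and a match is a description of the letters and not of binding.

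**Figure D1:**
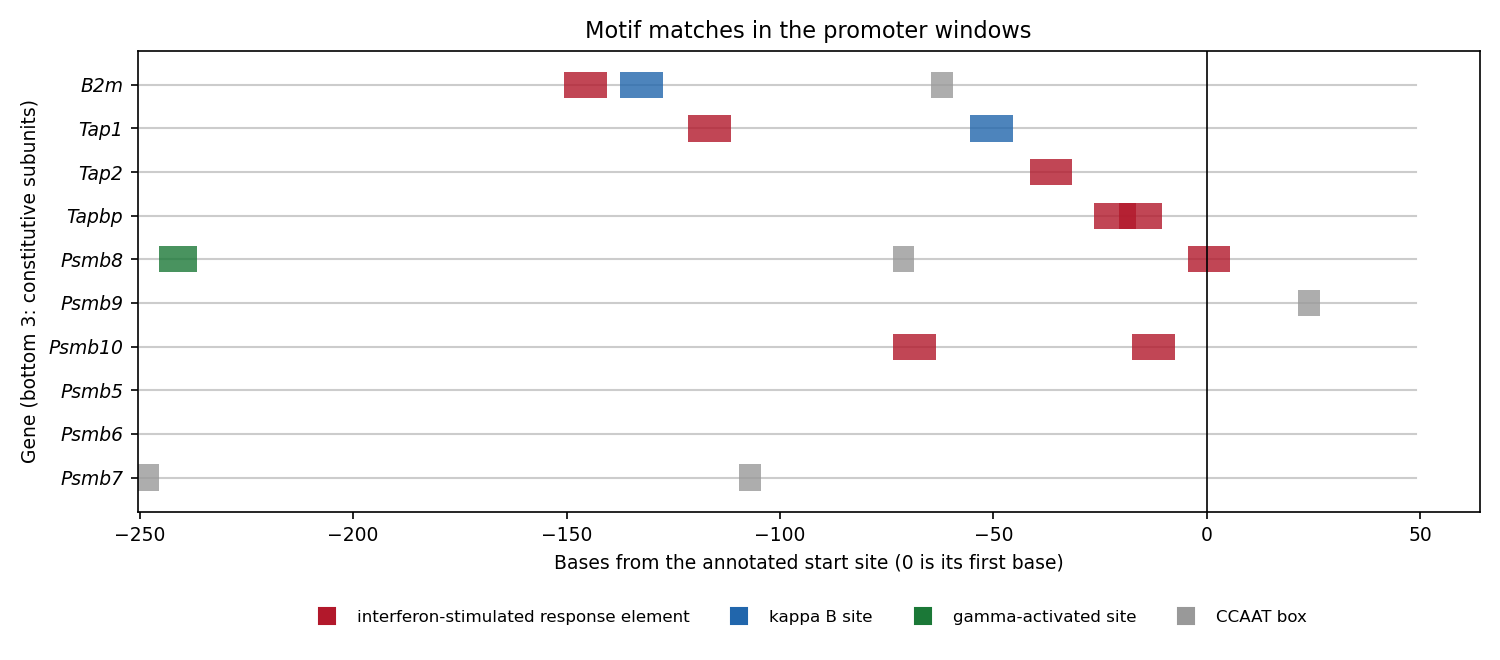
Positions of motif matches, in bases from the annotated start site, in the promoter windows of the 7 genes and of the 3 constitutive proteasome subunits. Interferon-stimulated response elements (red) lie in every member's window but that of Psmb9, and in none of Psmb5, Psmb6 and Psmb7.

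The deposited values are TPM, to which 0.0001 had been added, and every pup's values sum to 70350.1. The gene lengths behind them are not given in the sources used here, so levels of different genes are not interpreted against each other. Sums of TPM over gene lists and orders of genes by mean TPM, where given below, depend on those lengths. The depth is not given with the values. From the steps between low values, taken with the genomic span of each gene, it was estimated at 26.5 to 58.4 M reads per pup for saline, 24.3 to 60.8 M for Low Protein, 34.2 to 63.2 M for MAM and 28.2 to 40.6 M for Poly I:C. All 8 cortical and hippocampal markers listed in the table were above the offset in every pup, with a summed TPM between 206 and 413. Markers of adjoining tissue also varied, and the widest range within a group is given for each. Summed TPM ran from 33.3 to 246 for choroid plexus and 0.315 to 4.14 for thalamus, both in Poly I:C. It ran from 10.4 to 74.2 for meninges in Low Protein and 45.2 to 95.8 for ganglionic eminence in saline. Whether the dissection differed between pups was not tested. Genes were compared with limma on log2 TPM in a fit of all 24 pups. A filter on a mean above 1 in each group, which is part of the filter used in the study, kept 5086 genes but only B2m and Psmb10 of the 7, so values of the members come from a fit of the 12654 genes above the offset in all pups, which kept all 7. Fold changes of low genes are on the scale of the deposited TPM with its offset. For single genes the mean log2 TPM of 6 pups was also set against that of 6 others by permutation, exact and two-sided, over all splits, which cannot give a p below 0.00216.

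Only the immunoproteasome subunits passed an unadjusted test against saline in this fit, and each time they were higher than in the controls. In each of the 3 comparisons 2 of 7 members passed an unadjusted limma p of 0.05, and the passing members were higher than in saline. They were Psmb9 and Psmb10 in Low Protein, Psmb9 and Psmb10 in MAM, and Psmb8 and Psmb9 in Poly I:C. Of all genes tested, 7.20% passed for Low Protein, 10.0% for MAM and 9.44% for Poly I:C, and 2.65%, 2.13% and 3.96% passed and were higher. After Benjamini-Hochberg adjustment with limma no member passed in any comparison, against 0.00% of all genes for Low Protein, 0.0158% for MAM and 0.00% for Poly I:C. No member separated the 6 treated from the 6 saline pups without overlap, which 0.680% of all genes did for Low Protein, 0.901% for MAM and 0.450% for Poly I:C. The median log2 fold change of the 7 genes was 0.07 for Low Protein, 0.03 for MAM and 0.10 for Poly I:C, beside -0.01, -0.07 and 0.00 over all genes tested. These comparisons share the saline pups. The share of higher genes among all genes that passed depended on the scaling. In MAM it was 21.2% as deposited and 63.4% with the median of ratios, in Low Protein 36.8% and 50.5%, and in Poly I:C 42.0% and 28.2% with the upper quartile.

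**Figure D2:**
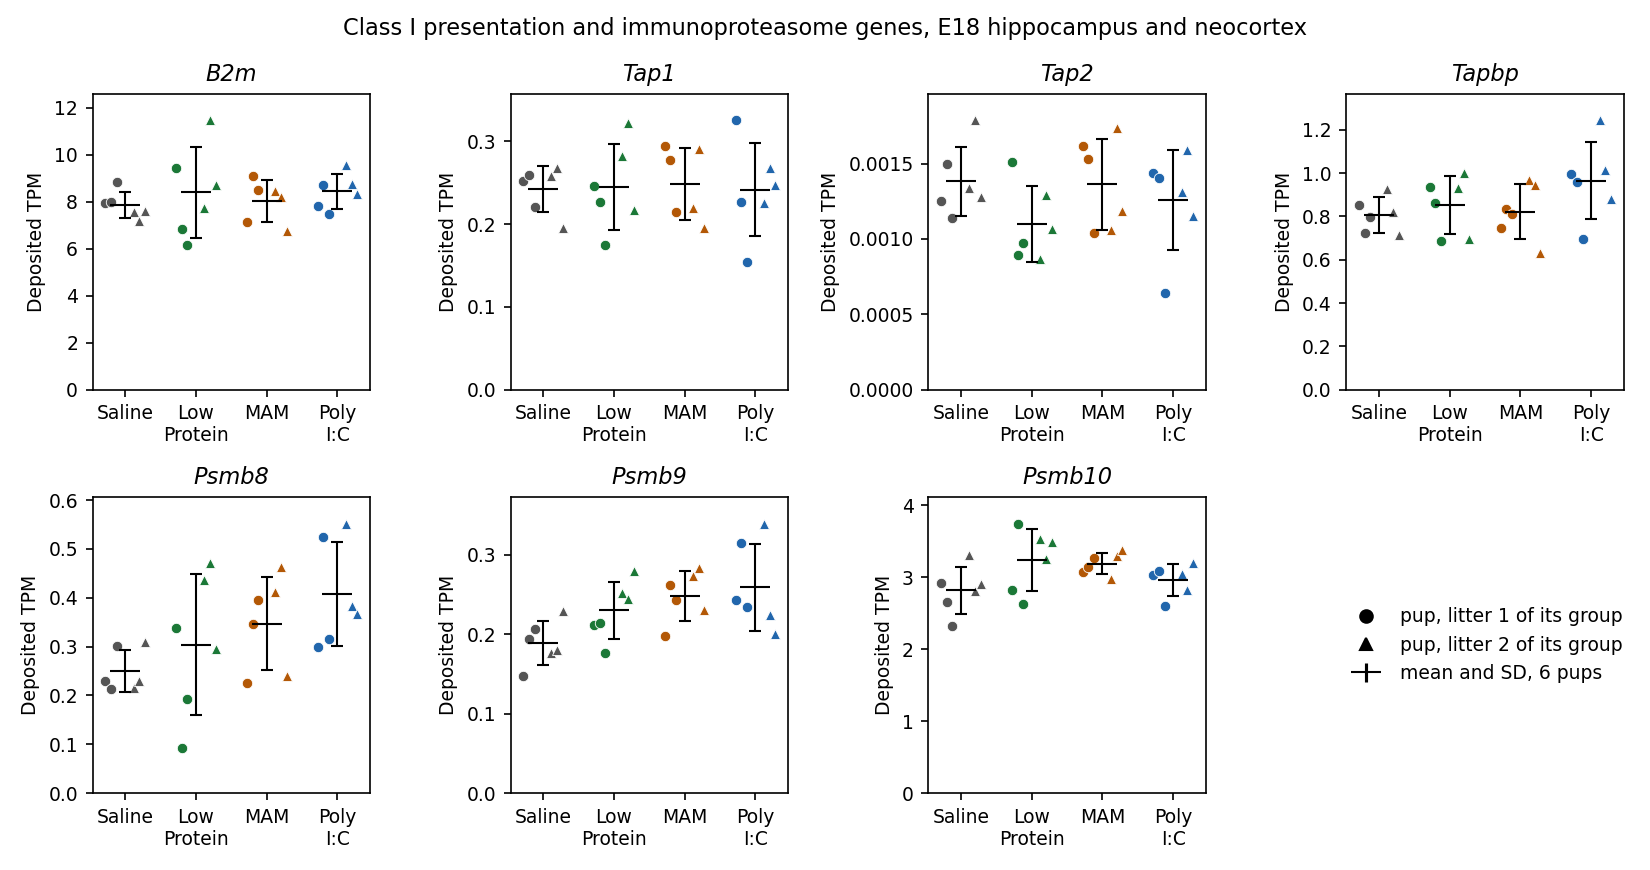
Deposited TPM (vertical axis, from 0) of the 7 genes in the 24 pups by maternal treatment, with circles for litter 1, triangles for litter 2, and the mean and SD of 6 pups. The groups overlap for every gene, and in the Psmb9 panel all 6 Poly I:C pups and all 6 MAM pups lie above the saline median of 0.187.

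**Figure D3:**
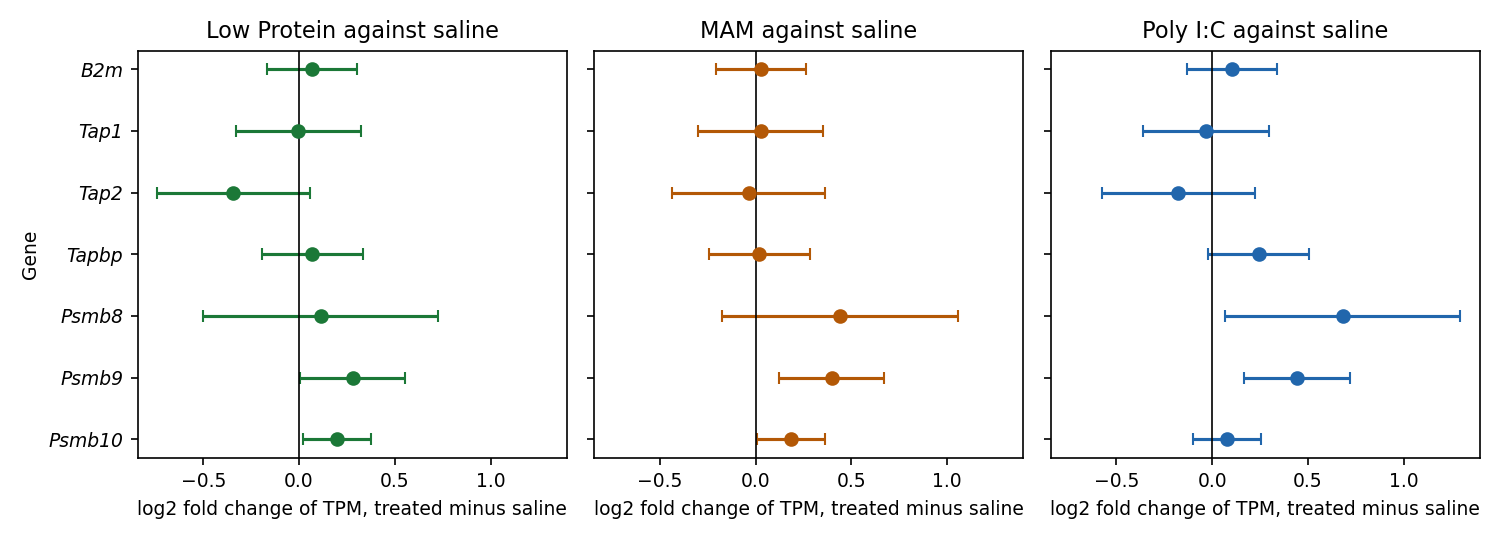
Log2 fold change of each gene against saline with its 95% confidence interval from the limma fit of 24 pups. The interval lies above 0 for Psmb9 in all 3 panels, for Psmb10 in Low Protein and MAM, and for Psmb8 in Poly I:C.

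Psmb9 encodes the inducible subunit that takes the place of Psmb6. Its TPM in saline pups had a lowest, median and highest value of 0.1475, 0.187 and 0.229. In MAM pups these were 0.198, 0.252 and 0.283. In Poly I:C pups they were 0.2005, 0.238 and 0.339. Every MAM and every Poly I:C pup was thus above the saline median, and 5 of 6 MAM pups and 4 of 6 Poly I:C pups were above all saline pups. The mean was 0.189 ± 0.0280 (SD, n = 6) in saline, 0.248 ± 0.0312 (SD, n = 6) in MAM and 0.259 ± 0.0546 (SD, n = 6) in Poly I:C. MAM pups differed by 0.40 on the log2 scale (standard error 0.13), with a limma unadjusted p = 0.00698, adjusted p = 0.490 and an exact permutation p of 0.00866. Poly I:C pups differed by 0.44 (standard error 0.13), with a limma unadjusted p = 0.00314, adjusted p = 0.348 and an exact permutation p of 0.013. Psmb9 passed the unadjusted threshold for Poly I:C in all 42 alternatives. For MAM it did so in 41 of 42 and did not without MAM litter 2, where the log2 fold change was 0.31 (limma adjusted p = 0.820).

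In Low Protein pups, Psmb9 ranged from 0.177 over a median of 0.229 to 0.280, with a mean of 0.230 ± 0.0364 (SD, n = 6). Of these pups 3 of 6 were above all saline pups. The difference from saline was 0.28 on the log2 scale (standard error 0.13), with a limma unadjusted p = 0.0479, adjusted p = 0.694 and an exact permutation p of 0.0584. The litters differed, with a mean of 0.201 in Low Protein litter 1 and 0.259 in litter 2, against 0.183 and 0.195 in the saline litters. The call was lost in 25 of 42 alternatives, 14 of them with a single pup left out. Without Low Protein litter 2 the difference was 0.09, and without Low Protein litter 1 it was 0.46.

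Psmb8, the inducible counterpart of Psmb5, had its highest values in Poly I:C pups. The lowest, median and highest TPM were 0.213, 0.230 and 0.310 in saline. They were 0.299, 0.375 and 0.551 in Poly I:C, where 5 of 6 pups were above all saline pups. The mean was 0.250 ± 0.0437 (SD, n = 6) in saline and 0.407 ± 0.107 (SD, n = 6) in Poly I:C. The difference was 0.68 on the log2 scale (standard error 0.30), with a limma unadjusted p = 0.0312, adjusted p = 0.478 and an exact permutation p of 0.00649. The limma call was lost in 8 of 42 alternatives. Among these the log2 fold change was 0.64 without saline pup 1-2 or saline pup 2-1. It was 0.60 without Poly I:C pup 1-2 and 0.59 without Poly I:C pup 2-1, where the first number is taken as the litter. The call was also lost without saline litter 1 (0.67), saline litter 2 (0.69) or Poly I:C litter 2 (0.57) and with litter means (0.68).

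In MAM pups Psmb8 ran from 0.226 over a median of 0.372 to 0.462 TPM, and 4 of 6 pups were above all saline pups. The log2 fold change of 0.44 (standard error 0.30) did not pass limma (unadjusted p = 0.151, exact permutation p = 0.0541). It passed the unadjusted threshold in a fit of the 12 MAM and saline pups alone (limma adjusted p = 0.341) and without Low Protein litter 1 (limma adjusted p = 0.507).

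Low Protein pups varied most in Psmb8. Their TPM ran from 0.0923 over a median of 0.316 to 0.470, so that this group held both the lowest value among the 24 pups and values above all saline pups (3 of 6). Litter 1 had a mean of 0.2075 and litter 2 of 0.401, whereas the saline litters had 0.248 and 0.252. The log2 fold change was 0.11 (standard error 0.30, exact permutation p = 0.812). It turned to -0.44 without Low Protein litter 2 and was 0.67 without Low Protein litter 1, where it passed the unadjusted threshold (limma adjusted p = 0.574). The lowest value, in Low Protein pup 1-2, corresponds to about 8 reads by the depth estimate (95% Poisson interval 3.45 to 15.8, counting error only). Without this pup the log2 fold change was 0.42 and did not pass the threshold.

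Psmb10, which replaces Psmb7, was the subunit with the smallest spread. Its TPM had a lowest, median and highest value of 2.33, 2.85 and 3.31 in saline and of 2.98, 3.21 and 3.38 in MAM. The MAM pups lay close together, with a mean of 3.19 ± 0.149 (SD, n = 6) beside 2.82 ± 0.325 (SD, n = 6) in saline, and all 6 were above the saline median but only 1 above all saline pups. The log2 difference was 0.19 (standard error 0.085), with a limma unadjusted p = 0.0407, adjusted p = 0.495 and an exact permutation p of 0.0238. Among Low Protein pups the range was 2.62 to 3.74 around a median of 3.37, a log2 difference of 0.20 (standard error 0.085), with a limma unadjusted p = 0.0295, adjusted p = 0.673 and an exact permutation p of 0.102. Among Poly I:C pups it was 2.60 to 3.20 around 3.04, a log2 difference of 0.08 (exact permutation p = 0.383). In the fit of genes with a mean above 1 in each group Psmb10 passed the unadjusted threshold in the same comparisons (limma adjusted p = 0.546 for Low Protein, adjusted p = 0.418 for MAM), where 8.24% of all genes did so for Low Protein, 11.2% for MAM and 9.95% for Poly I:C. The MAM call was lost in 12 and the Low Protein call in 9 alternatives, and without saline litter 1 the log2 fold changes were 0.09 and 0.10.

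Each inducible subunit was also set against the constitutive subunit it replaces, within the same pup. The level of such a ratio depends on the lengths used, and only its difference between pups is read. In Poly I:C the log2 ratio of Psmb8 to Psmb5 was 0.70 higher than in saline (exact permutation p = 0.00866, adjusted over the 9 ratio comparisons 0.0779). Its values ran from -6.26 to -5.37 in Poly I:C and from -6.96 to -6.10 in saline. The log2 ratio of Psmb9 to Psmb6 was 0.55 higher in Poly I:C (exact permutation p = 0.0173, adjusted 0.0779). That of Psmb10 to Psmb7 was 0.23 higher in MAM (exact permutation p = 0.026, adjusted 0.0779). None of the 9 ratios passed after adjustment, and the other 6 had unadjusted exact permutation p-values of 0.238 or more. The unadjusted p of these 3 ratios stayed under 0.05 without any single pup. The constitutive genes themselves passed limma in 1 of 9 tests, Psmb5 in MAM, which was 0.16 higher on the log2 scale (exact permutation p = 0.0433).

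**Figure D4:**
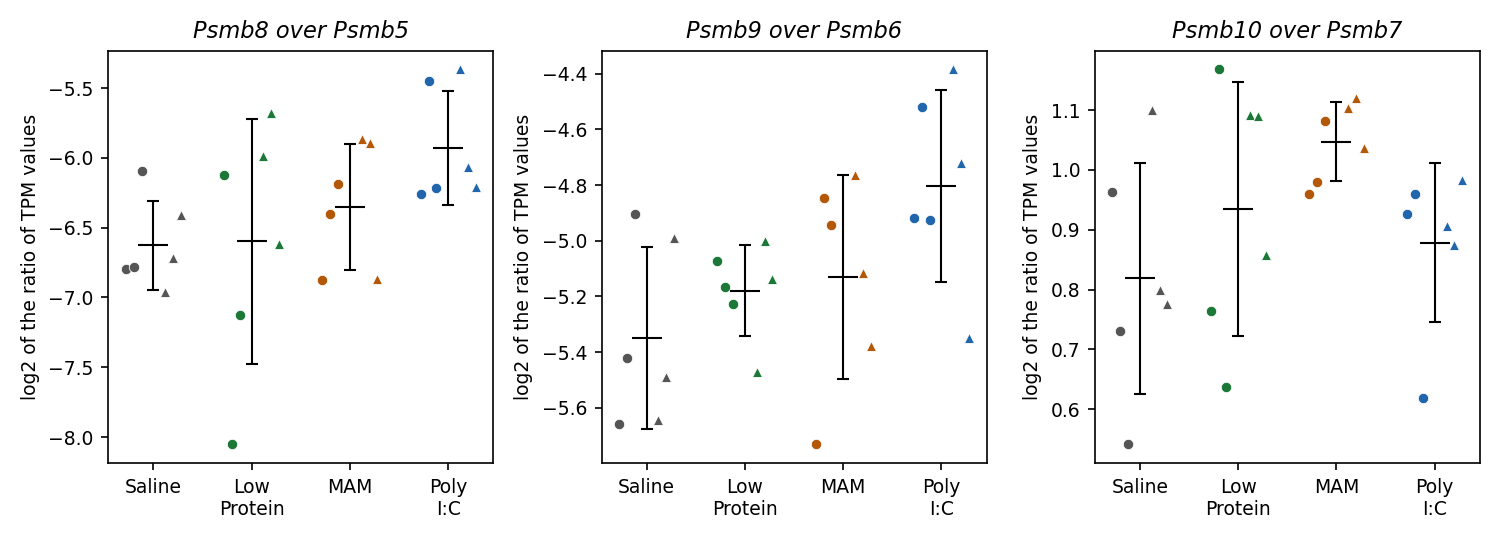
Log2 ratio of each immunoproteasome subunit to its constitutive counterpart in the 24 pups (circles litter 1, triangles litter 2, lines mean and SD of 6 pups). The Poly I:C means lie 0.70 above saline for Psmb8 over Psmb5 and 0.55 for Psmb9 over Psmb6, and the MAM mean lies 0.23 above saline for Psmb10 over Psmb7.

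The genes of peptide transport and loading gave no call. B2m, the light chain shared by class I molecules, had a mean TPM of 7.86 ± 0.564 (SD, n = 6) for saline, 8.40 ± 1.93 for Low Protein, 8.04 ± 0.891 for MAM and 8.45 ± 0.741 for Poly I:C. Against saline it differed by 0.07, 0.03 and 0.10 on the log2 scale (exact permutation p = 0.645, 0.727 and 0.141), and the 95% interval in Poly I:C was -0.13 to 0.34. Low Protein pups again spread most, from 6.16 to 11.5, beyond the saline range of 7.18 to 8.84 on both sides. Tap1, one chain of the transporter, had a mean TPM between 0.241 and 0.249 in all 4 groups, and the 95% intervals of its log2 fold changes were -0.33 to 0.32 for Low Protein, -0.30 to 0.35 for MAM and -0.36 to 0.29 for Poly I:C. The divergent neighbor of Psmb9 thus showed no detectable difference in the groups where Psmb9 was higher. Whether the fold changes of Tap1 and Psmb9 differ from each other was not tested.

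Tapbp, which encodes tapasin, had a lowest, median and highest TPM of 0.714, 0.810 and 0.928 in saline and of 0.697, 0.976 and 1.24 in Poly I:C. In Poly I:C 4 of 6 pups were above all saline pups and 1 was below them. The difference of 0.24 on the log2 scale (standard error 0.13) had a limma unadjusted p = 0.0678, adjusted p = 0.556 and an exact permutation p of 0.0801. The low pup was Poly I:C 1-3, and without it the difference was 0.33 and passed the unadjusted threshold (limma adjusted p = 0.272). It also passed without Poly I:C litter 1 (0.37), without saline pup 2-1 (0.29), with litter means, and with median of ratios or TMM scaling (0.24 in each). In Low Protein and MAM its log2 fold changes were 0.07 and 0.02.

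Tap2, the other chain, was listed between 0.000644 and 0.00179 TPM, so the offset makes up part of each value. Taken with the genomic span of Tap2, the depth estimate would give 0.276 to 1.68 reads per pup. That is less than a whole read in some pups, although every pup was above the offset. The estimate therefore does not hold for Tap2, its read number is not known, and its level is not interpreted. Low Protein pups differed from saline by -0.34 on the log2 scale (limma unadjusted p = 0.0883, exact permutation p = 0.0606), MAM pups by -0.04 and Poly I:C pups by -0.18. The Low Protein difference passed the unadjusted threshold without Low Protein pup 1-1, where it was -0.44. It also passed, at -0.34, without Poly I:C pup 1-3 or Poly I:C litter 1, with litter means and in a fit of the 12 pups compared. The other members had an estimated 8.02 to 82.2 reads per pup in Psmb8, 33.1 to 106 in Psmb9, 57.9 to 242 in Tap1, 218 to 646 in Tapbp, 218 to 604 in Psmb10 and 1220 to 4377 in B2m.

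Between the treatments, no member passed an unadjusted limma p of 0.05, while 18.4% of all genes did for MAM against Poly I:C, 8.70% for Low Protein against MAM and 4.60% for Low Protein against Poly I:C. The subunit calls listed for one treatment and not for another are therefore not shown to differ between treatments. The Psmb8 difference of Low Protein minus Poly I:C was, in log2 units, -0.57 (exact permutation p = 0.186), and that of MAM minus Poly I:C was -0.24 (exact permutation p = 0.314). For Psmb9 the same differences were -0.16 (exact permutation p = 0.316) and -0.05 (exact permutation p = 0.758).

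Across the 24 pups, some members varied together. Of 21 pairs, 6 had a Pearson r with an adjusted permutation p under 0.05, and all of these r were positive. Psmb8 and Psmb9 had r = 0.661 (permutation p = 0.00044, adjusted over 21 pairs 0.00427) and a Spearman rho of 0.772 (permutation p = 4e-05, adjusted 0.00084). Without the 2 pups farthest in Psmb8 this r was 0.777. With the group means subtracted r was 0.581 (permutation p = 0.00212, adjusted 0.0111), and 0.728 without the 2 farthest pups. B2m and Psmb8 had r = 0.689 (permutation p = 0.00031, adjusted 0.00427) and rho = 0.683 (permutation p = 0.0003, adjusted 0.00315), and r was 0.681 without the 2 farthest pups. Tap1 and Tap2 had r = 0.658 (permutation p = 0.00061, adjusted 0.00427) and rho = 0.639 (permutation p = 0.00122, adjusted 0.00714), and r was 0.450 without the 2 farthest pups. The 3 other pairs were B2m with Tapbp (r = 0.581), Tap1 with Tapbp (r = 0.523) and Tapbp with Psmb8 (r = 0.505). Without the 2 farthest pups their r was 0.514, 0.388 and 0.412. With each of 8 litters left out, their calls were lost in 2, 5 and 6 cases. Tapbp with Psmb8 did not pass with the group means subtracted (adjusted permutation p = 0.087). Tap1 and its neighbor Psmb9 had r = -0.01. With group means subtracted 5 of 21 pairs passed. Pups of a litter share a dam, and all values of a pup share its library, so these p-values are too small to the extent that litters differ. Without MAM litter 2 or without Poly I:C litter 1 the count was 3 pairs.

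**Figure D5:**
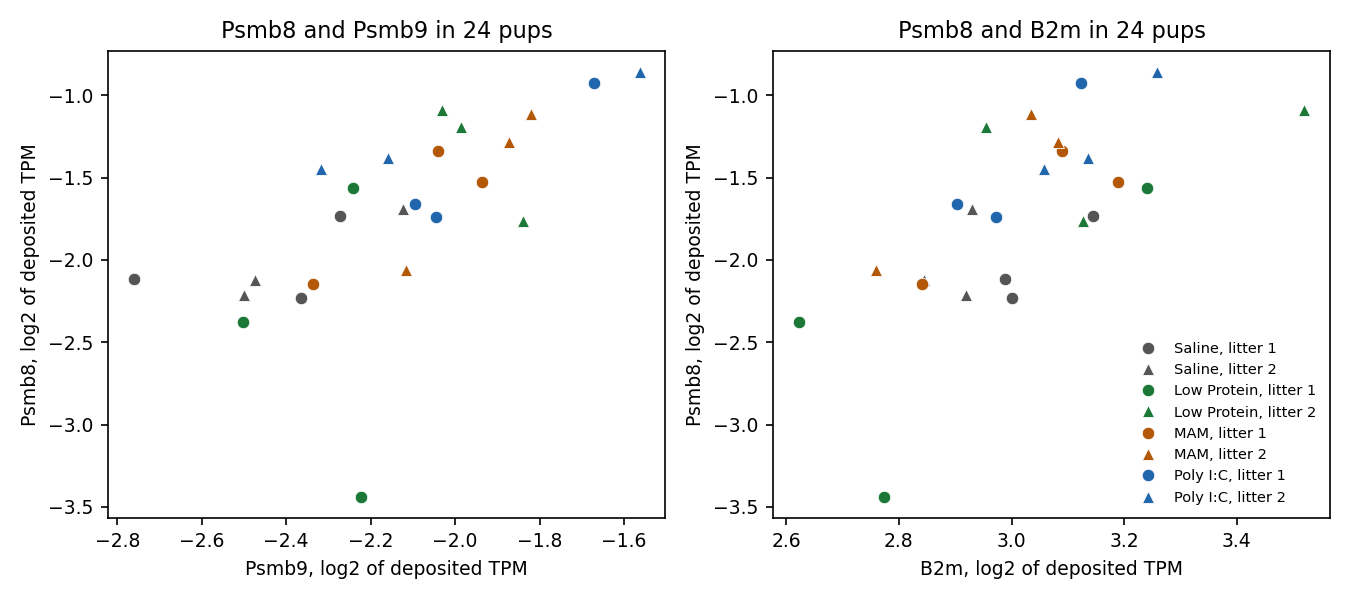
Psmb8 against Psmb9 (left) and against B2m (right), log2 of the deposited TPM in each of 24 pups, colored by maternal treatment and with a symbol per litter. Psmb8 goes up with both genes (r = 0.661 and 0.689), and Low Protein pup 1-2 lies lowest in Psmb8.

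The genes whose pattern over the 24 pups was most like that of each member were sought among 5084 genes with a mean above 1 in every group. For Psmb8 they were Cd68 (r = 0.680), a lysosomal protein of phagocytes, and C1qb (r = 0.648), a complement subunit made by microglia in brain. B2m was most like Selenop (r = 0.908), which encodes a selenium carrier, and Ahsp (r = 0.830), a hemoglobin chaperone of red cell precursors. Tap1 was most like the hemoglobin gene Hba2 (r = 0.839) and Hic1 (r = 0.829), and Tapbp was most like Slc25a39 (r = 0.814) and the endothelial receptor gene Tie1 (r = 0.803). Psmb10 had Ppox (r = 0.754) and Nob1 (r = 0.750), Tap2 had Cbx8 (r = 0.728) and Pgpep1 (r = 0.705), and Psmb9 had only weaker likenesses, RGD1562114 (r = 0.582) and Oxld1 (r = 0.556). These r describe 24 pups that share libraries and litters and carry no test.

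Several of these genes mark other cell types of the dissected tissue. The 14 microglia markers used were all above the offset in every pup. Their summed TPM ran from 15.3 to 19.1 for saline, 12.5 to 29.6 for Low Protein, 19.0 to 23.7 for MAM and 15.1 to 22.3 for Poly I:C. In MAM, 5 of 14 passed an unadjusted limma p of 0.05 upward (C1qa, C1qb, Tyrobp, Trem2 and Laptm5). None of 14 passed in Low Protein or Poly I:C. Over all genes tested, 10.0% passed in MAM, with 2.13% higher, and 7.20% in Low Protein, with 2.65% higher. In Poly I:C 9.44% passed, with 5.48% lower. The 8 erythroid markers in the table had a summed TPM of 450 to 869 for saline, 470 to 1115 for Low Protein, 558 to 969 for MAM and 610 to 928 for Poly I:C, and none was at the offset in all pups. Hbz and Hbe1 passed in MAM and Hbz in Low Protein, all upward. The 9 endothelial markers summed to 47.4 to 66.5 for saline and 38.9 to 83.2 for Low Protein. They summed to 52.6 to 66.8 for MAM and 43.2 to 72.9 for Poly I:C, where Egfl7 passed downward. Such sums follow the genes with the highest values, here Cldn5, with a mean of 52.3 of 56.9 TPM in saline. The mean log2 TPM of the endothelial markers minus saline was -0.07 for Low Protein, -0.06 for MAM and -0.07 for Poly I:C. That of the microglia markers was 0.06, 0.17 and 0.08. The part of microglia, blood and vessel cells in the values of the members was not tested, and in bulk tissue fewer cells of a type and less RNA per cell cannot be told apart.

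The heavy chains that B2m and the loading complex serve are encoded by RT1 class I genes. The table lists 39 of them, of which 19 were above the offset in all pups, and reads of these near-identical copies can be split between them, so single genes are uncertain. Their summed TPM was 6.16 ± 0.702 (SD, n = 6) for saline, 6.01 ± 1.12 for Low Protein, 7.17 ± 1.09 for MAM and 7.09 ± 1.36 for Poly I:C, with exact permutation p-values against saline of 0.742, 0.0974 and 0.245. Of the 19 genes, none passed an unadjusted limma p of 0.05 in Low Protein. In MAM, RT1-A2 and RT1-CE10 were higher, 2 of 19, and none was lower. In Poly I:C RT1-CE4 and RT1-S3 were higher while RT1-A1 and RT1-A3 were lower. Over all genes tested 7.20% passed in Low Protein. In MAM 10.0% did, with 2.13% higher, and in Poly I:C 9.44%, with 3.96% higher and 5.48% lower. The RT1 calls are therefore not read as a difference of the list. The 3 genes with the highest mean were RT1-A2, RT1-N3 and RT1-S3. RT1-A2 had a mean of 0.944 TPM in saline and 1.32 in MAM (log2 fold change 0.46, limma adjusted p = 0.495, exact permutation p = 0.0216), and RT1-S3 had 0.647 in saline and 0.878 in Poly I:C (log2 fold change 0.46, limma adjusted p = 0.432, exact permutation p = 0.0563). RT1-A1, with the smallest p of the list in Poly I:C, had a log2 fold change of -0.52 there (limma adjusted p = 0.412, exact permutation p = 0.0325). RT1-N3 had log2 fold changes of 0.19 in MAM and -0.02 in Poly I:C.

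Other genes of the pathway showed few differences. The share of all genes that passed limma unadjusted was 7.20% for Low Protein, 10.0% for MAM and 9.44% for Poly I:C. Among 4 proteasome activators and assembly factors, Psme1, Psme2, Psme3 and Pomp, none passed limma in any comparison, and Psme1, a subunit of the interferon-inducible activator, had a log2 fold change of 0.10 in MAM (limma adjusted p = 0.535, exact permutation p = 0.0195). Of 5 loading partners in the endoplasmic reticulum, Calr, the chaperone calreticulin, was higher in Poly I:C (log2 fold change 0.14, exact permutation p = 0.0152), and Pdia3, a disulfide isomerase of the loading complex, was lower in MAM (-0.17, exact permutation p = 0.0584). None of 4 tested class I-like genes that pair with B2m (Fcgrt, Hfe, Mr1 and Cd1d1) passed. Of 7 tested class II genes only Ctss passed, a lysosomal protease also made by microglia, and it was higher in all 3 comparisons, by 0.22, 0.31 and 0.36 on the log2 scale.

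For regulators, receptors and interferon-stimulated genes, the limma contrasts between treatments are not reported here. A call listed for some treatments and not for others is therefore not read as a difference between treatments. Of 7 regulators used, Irf2 and Rfx5 were higher in Poly I:C, with log2 fold changes of 0.26 and 0.20 (exact permutation p = 0.0541 and 0.0779), and none of 7 passed in Low Protein or MAM. Rfx5 is part of the complex that binds class I and class II promoters. Over all genes tested, 9.44% passed in Poly I:C, with 3.96% higher and 5.48% lower. In MAM 10.0% passed, with 7.91% lower, and in Low Protein 7.20%, with 4.55% lower. Of 22 interferon-stimulated genes tested, 6 were higher in Poly I:C (Bst2, Usp18, Irf7, Irf9, Rtp4 and Ddx58). None of them passed in Low Protein, and Mx2 was lower in MAM. Bst2, which tethers budding virus to the cell surface, had the smallest p of the list and was 0.97 higher on the log2 scale in Poly I:C (limma adjusted p = 0.236, exact permutation p = 0.013). Irf9, which binds the response element, was 0.29 higher on the log2 scale in Poly I:C (limma adjusted p = 0.348, exact permutation p = 0.013). The median log2 fold change of the 22 genes was 0.34 in Poly I:C, 0.05 in Low Protein and 0.00 in MAM, beside 0.00, -0.01 and -0.07 over all genes. Of 5 receptor and kinase genes tested, Ifngr2, a chain of the interferon gamma receptor, was lower in Low Protein (-0.19, exact permutation p = 0.0108) and in Poly I:C (-0.22, exact permutation p = 0.00649). In MAM Ifngr2 did not pass limma (-0.11, exact permutation p = 0.0195). Jak1 and Jak2 were lower in MAM. The interferon genes Ifng and Ifnb1 did not exceed the offset in all pups and were not tested.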

How the data were processed

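The authors trimmed reads at phred 30 (minimum length 25), aligned them to rn6 with STAR 2.4.1d and quantified them against RefSeq transcripts in Partek Flow. The deposited values are those the authors call TPM, with an added offset of 0.0001. Columns were matched to pups by the sample number in the labels. The first number in the sample names was taken as the litter, with 3 pups for each of 2 litters per group. The labels do not state what that number is, so all results by litter rest on this reading. Since TPM are not counts, log2 TPM was compared with limma 3.58.1 in R 4.3.3, all 24 pups in 1 fit and Benjamini-Hochberg adjustment over all genes tested. The filter of a mean above 1 in each group, without the software's reliability criterion that the study added, was to be used, but 5 of 7 members lie below it, so the members were read from a fit of the genes above the offset in all pups. Scripts were tested on simulated data. Calls use an unadjusted limma p of 0.05, and each unadjusted limma p printed has an exact permutation p beside it. Depth was estimated from steps between low values and GRCr8 genomic spans (15093 genes, 86.6%, matched by symbol). In each pup the depth was chosen to bring the most low values within 0.05 of whole reads, and 49.1% to 54.5% came there. Evenly spread values would give 10% at a depth fixed beforehand, so the share does not test the chosen depth. The other low values did not come near whole reads, and the estimate did not hold for Tap2, so read numbers are approximate. Members, gene lists and motifs were chosen with earlier results of these data known. Values beyond the members are given for the constitutive subunits, the proteasome activators, the 3 RT1 genes with the highest mean, up to 3 genes per list by smallest limma p and, for each member, the 2 genes with the highest r. Nlrc5, Ifnar2, Xaf1 and Sppl3 were not analysed here, and 1 listed microglia marker and 1 listed regulator are not reported here and were left out of the counts and sums of their lists. Alternatives changed the filter, pseudocount, scaling, pups fitted, variance model, litter and pairing, and left out each pup and litter.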

Additional observations from a re-analysis of the deposited data

Results flagged for a closer look

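Of 28 groups of 6 pups tested, 7 genes in 4 groups each, 1 held a pup set apart from the others. Tap2 in Poly I:C pup 1-3 was 0.000644 TPM, below the other 5 Poly I:C pups by a gap of 0.647 of the group's range, past the 95% limit of Dixon's test for 6 samples. Chance sets apart about 1 in 20 such groups. The same pup had the lowest Tap1 and Tapbp values of its group, and the value lies near the offset of 0.0001.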

How the results depend on the processing

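No member reached an adjusted p of 0.05 in any of the alternatives. The number of genes that passed an unadjusted p of 0.05 was 419 for Low Protein, 572 for MAM and 506 for Poly I:C behind the filter on level. It was 911, 1270 and 1194 over genes above the offset, 176, 202 and 172 with a mean above 5, and 262, 250 and 312 with litter means, which test fewer genes or samples. Without saline litter 2 it was 271 for Low Protein and 289 for Poly I:C, and it was 163 for MAM without saline litter 1. In MAM it was 319 without MAM litter 1 and 245 without MAM litter 2, and in Poly I:C 964 and 228 without its litters 1 and 2. Leaving out single pups gave 294 to 483 for Low Protein, 284 to 862 for MAM and 341 to 674 for Poly I:C, where saline pup 1-3 (284), MAM pup 2-2 (328) and saline pup 2-1 (862) moved the MAM count by more than 1.5 times. Of the 7 members, 0 to 3 passed for Low Protein, 1 to 2 for MAM and 1 to 3 for Poly I:C with single pups left out. In Low Protein 1 passed with either pseudocount, upper quartile scaling, litter as a random effect, litter means, or without saline litter 2, MAM litter 1 or MAM litter 2, and 0 without saline litter 1 or Low Protein litter 2. In MAM 1 passed with litter means or without saline litter 1, MAM litter 1 or Poly I:C litter 2, and 0 without MAM litter 2. In Poly I:C 1 passed without saline litter 1, saline litter 2 or Poly I:C litter 2. The pairs of members that varied together were 3 without MAM litter 2 and 3 without Poly I:C litter 1. The cause of these moves was not tested. Residuals of same-numbered pups in different groups had mean correlations of -0.02 to 0.14, with a minimum of -0.16. For pups of other numbers the means were -0.03 to 0.004. The same-number mean was the higher in each pairing with Poly I:C and in that of Low Protein with MAM. It was not higher in the pairings of saline with Low Protein or MAM. Whether replicate numbers pair the pups was not tested further. With the replicate block 596, 794 and 652 genes passed, Tap2 in Low Protein (adjusted p = 0.491) and Tapbp in Poly I:C (adjusted p = 0.321) came under the unadjusted threshold, and no other call of a member changed.

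Signs turned for some differences that had not passed, while those of Tap2 and Tapbp in Low Protein, of B2m and Tapbp in Poly I:C and of Psmb8 in MAM did not turn in any alternative. Tap1 in Low Protein was 0.00091 and 0.0021 with pseudocounts of 0.1 and 1, 0.0208 with the median of ratios, 0.0208 with TMM, 0.012 without saline litter 1, 0.17 without Low Protein litter 1 and -0.089 to 0.087 without single pups. B2m in Low Protein was -0.0049 without saline litter 2, -0.092 without Low Protein litter 2 and -0.028 to 0.15 without single pups. Psmb8 in Low Protein was -0.44 without its litter 2 and -0.050 to 0.42 without single pups, and its ratio to Psmb5 was -0.15 to 0.32. In MAM, Tap2 was 0.0048 under upper quartile scaling, 0.029 under median of ratios, 0.030 under TMM, 0.052 without saline litter 2, 0.0036 without MAM litter 2 and -0.11 to 0.042 without single pups. Tapbp in MAM was -0.0042 without saline litter 1, -0.013 without MAM litter 2 and -0.031 to 0.094 without single pups. B2m in MAM was -0.045 without saline litter 2, -0.012 without MAM litter 1 and -0.0098 to 0.076 without single pups. Tap1 in MAM was -0.056 without MAM litter 1 and -0.034 to 0.092 without single pups. In Poly I:C, Psmb10 was -0.021 without saline litter 1, Tap1 was 0.033 without Poly I:C litter 1 and -0.13 to 0.089 without single pups, and Tap2 was -0.25 to 0.0056 without single pups.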
